A study of Mus musculus with 4 samples.

Results

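The T cell receptor complex and the proteins that carry its signal from the membrane were followed in 4 populations of CD4+ CD8- mouse thymocytes. The genes came from a list of 41 members: the CD3 and zeta chains, the kinases, adaptors and enzymes next to them, the calcium branch, and the attenuators. A member was taken where its symbol stood in the array annotation, with the probe set of highest mean over the 4 arrays. This gave 39 of the 18193 named genes on the array. Lck, the kinase that phosphorylates the receptor chains, and Itpr1, a calcium release channel, had no probe set under their symbols in the annotation used and were not analysed here. Of the 39, 38 were above the detection floor on at least 1 array and 36 on all 4. Txk, a Tec family kinase, read 2.94 to 3.08 log2 and was under the floor on every array.

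Each population was measured on 1 Affymetrix mouse 430 2.0 array, with cells from females of 6 to 8 weeks sorted by magnetic beads and then by fluorescence. Foxp3-fusion cells were GFP+ thymocytes of Foxp3(gfp/gfp) mice, which carry a knock-in allele for a fusion of GFP and Foxp3, the transcription factor of regulatory T cells. Foxp3-null cells were GFP+ thymocytes of Foxp3(gfpko/wt) mice, which by their title carry 1 gfpko and 1 wild-type allele. The description of that sample repeats the text on the fusion allele, so its group rests on the title and strain. GFP- CD25+ and GFP- CD25- cells came from Foxp3(gfp/gfp) mice, so both carry the fusion allele too. The Foxp3-null mice were at backcross 2 from 129/Sv to C57BL/6 and the mice of the other 3 arrays at backcross 4 to 6. Genotype, backcross and array therefore cannot be told apart in comparisons with Foxp3-null cells. The labels do not say how many mice gave each sample. With 1 array per population there is no replicate check, and no difference below carries an error or a p-value.

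A T cell senses peptide on MHC molecules through its receptor, and the CD3 and zeta chains pass the signal inwards through tyrosine motifs. Src family kinases phosphorylate these motifs, ZAP-70 docks on them, and the adaptors LAT and SLP-76 then gather the enzymes that open the calcium, Ras and NF-kappaB branches. In the thymus the strength of this signal bears on survival and fate, and regulatory T cells are known to arise among cells with strong self-recognition. In bulk samples, fewer cells of a type and less RNA per cell cannot be told apart.

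Signals are log2 values after quantile normalization unless called deposited, and the floor was 4.87 log2, set from genes of other tissues. Foxp3 read 8.83 log2 in Foxp3-fusion and 7.27 in Foxp3-null cells, against 2.88 in GFP- CD25+ and 2.76 in GFP- CD25- cells. It was used in the sort through GFP. The gap between 3' and 5' control probe sets of Actb was 5.22 log2 on the Foxp3-fusion, 6.99 on the Foxp3-null, 9.27 on the GFP- CD25+ and 8.39 on the GFP- CD25- array. Its part in the results below was not tested. Of 7 CD4 T cell markers with a probe set, 6 were above the floor on every array. Among B cell markers, 0 or 1 of 7 were above it, with summed linear signals of 57.5 to 89.8. For dendritic cells and macrophages 2 to 4 of 10 were (186 to 348), for NK and NKT cells 0 to 3 of 7 (74.4 to 233), for thymic epithelium 1 of 6 and for erythroid cells 0 of 3. For gamma delta T cells only Maf, which alpha beta T cells also express, was above it, with a summed signal of 1360 in Foxp3-fusion and 356 in Foxp3-null cells, against 382 in GFP- CD25+ and 513 in GFP- CD25- cells. Of 4 CD8 T cell markers 1 was above it on each array (99.6 to 137), Eomes at 5.40 log2 in Foxp3-fusion, 6.06 in Foxp3-null and 6.19 in GFP- CD25+ cells, and Runx3 at 5.50 in GFP- CD25- cells, while the sort genes Cd8a and Cd8b1 were under it. Of the measured ones, 1 was at least 2-fold higher in Foxp3-null and 1 in GFP- CD25+ cells, each over GFP- CD25- cells. The NK and NKT sum was 107 in Foxp3-fusion and 146 in Foxp3-null cells, against 74.4 in GFP- CD25+ and 233 in GFP- CD25- cells. In GFP- CD25+ over GFP- CD25- cells, 0 of 3 measured NK and NKT markers were at least 2-fold higher and 2 lower. The part of these markers in the results below was not tested.

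Of the 39 pathway genes, 36 were above the floor in all 4 populations, and the 38 measured ones differed between arrays about as much as other genes did. The range over the 4 arrays had a median of 1.07 log2 for the 38 measured members and of 0.96 for 7442 measured genes. The 20 members that did not pass 2-fold in any of the 4 comparisons included Ptprc, which encodes CD45, and the Wiskott-Aldrich gene Was. One of the 20, Nck1, has only a lower bound in Foxp3-null cells. The 18 others are described by role below. Normalization matters for the direction of small differences. From quantile normalized to deposited values, the median over all measured genes moved from -0.04 to 0.17 for Foxp3-fusion over GFP- CD25- cells and from 0.22 to -0.02 for Foxp3-null over GFP- CD25- cells. It moved from -0.16 to 0.32 for Foxp3-fusion over Foxp3-null cells and from 0.11 to -0.04 for GFP- CD25+ over GFP- CD25- cells. The share of higher genes among all those 2-fold apart was 64.4%, 58.1%, 51.8% and 47.8% in that order, against 80.4%, 29.0%, 88.2% and 26.2% with deposited values.

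**Figure D1:**
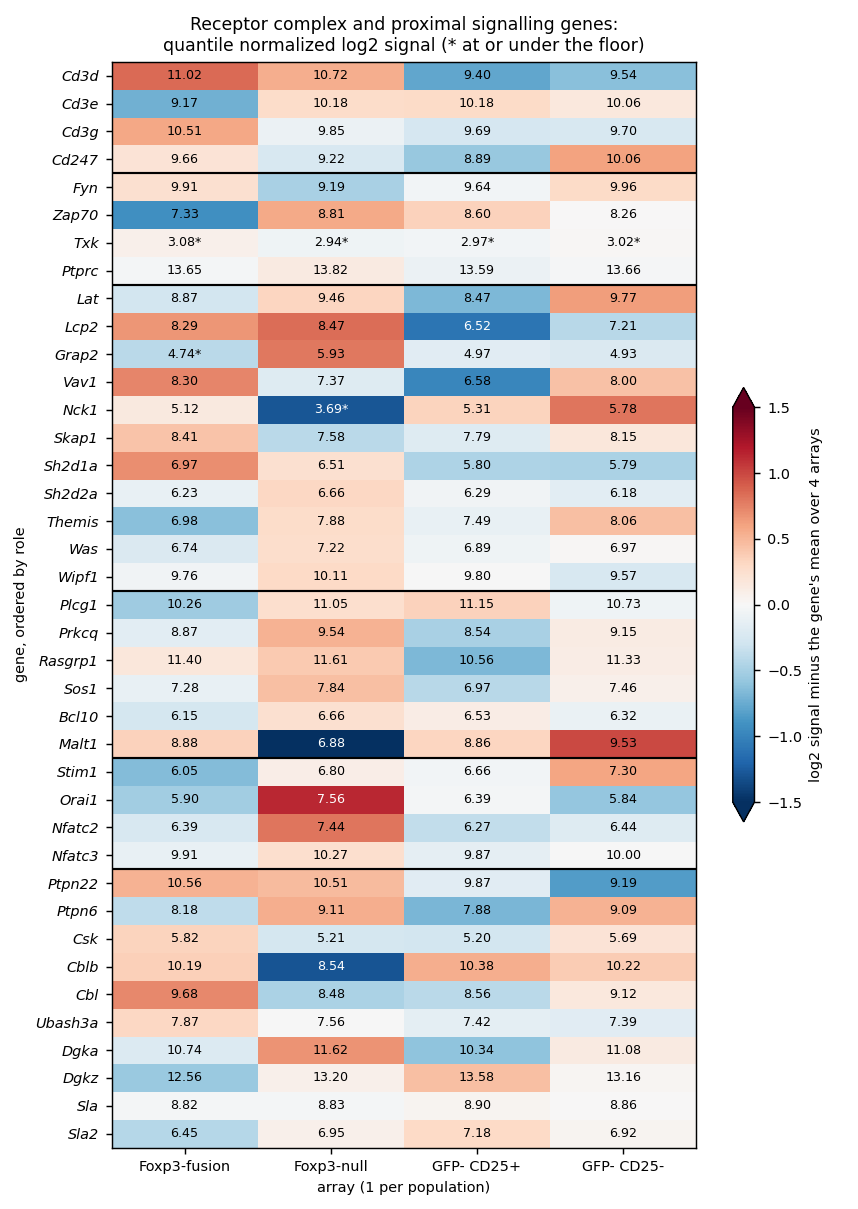
Quantile normalized log2 signal of 39 genes (rows, by role, separated by lines) on 4 arrays (columns). Numbers are levels, colour is the level minus the gene's mean over the arrays, and an asterisk marks a level at or under the floor of 4.87. Cd3d is highest on both GFP+ arrays, while Malt1 and Cblb are lowest on the Foxp3-null array.

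In Foxp3-fusion over GFP- CD25- cells, 4 of 38 members were at least 2-fold higher, Cd3d, Lcp2, Sh2d1a and Ptpn22, and 2 were at least 2-fold lower, Themis and Stim1. The background was close to this: of 6936 genes measured, 10.5% were at least 2-fold higher and 5.78% lower. The median member difference was -0.05 log2 beside -0.04 for all genes, and 0.17 beside 0.17 with deposited values, which gave 5 higher and 1 lower members beside 15.6% and 3.81% of all genes. In Foxp3-null over GFP- CD25- cells, 6 members were higher and 2 lower, against 10.6% and 7.67% of 7132 genes, with a median of 0.16 beside 0.22. With deposited values the same comparison gave 1 higher and 6 lower beside 5.11% and 12.5% of all genes, with a median of -0.12 beside -0.02. In Foxp3-fusion over Foxp3-null cells, 3 members were higher and 5 lower, against 9.17% and 8.53% of 7249 genes, with a median of -0.35 beside -0.16. Deposited values gave 9 higher and 1 lower there beside 20.9% and 2.79% of all genes, with a median of 0.21 beside 0.32. In GFP- CD25+ over GFP- CD25- cells, 0 members were higher and 4 lower, Cd247, Lat, Vav1 and Ptpn6, against 4.25% and 4.64% of 6924 genes. The median was -0.14 beside 0.11, or -0.37 beside -0.04 with deposited values. The 4 genes were lower by 2-fold or more with deposited values as well, where 7.70% of all genes were lower. The first 3 comparisons pairwise share arrays, and the last shares the GFP- CD25- array with the first and second.

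**Figure D2:**
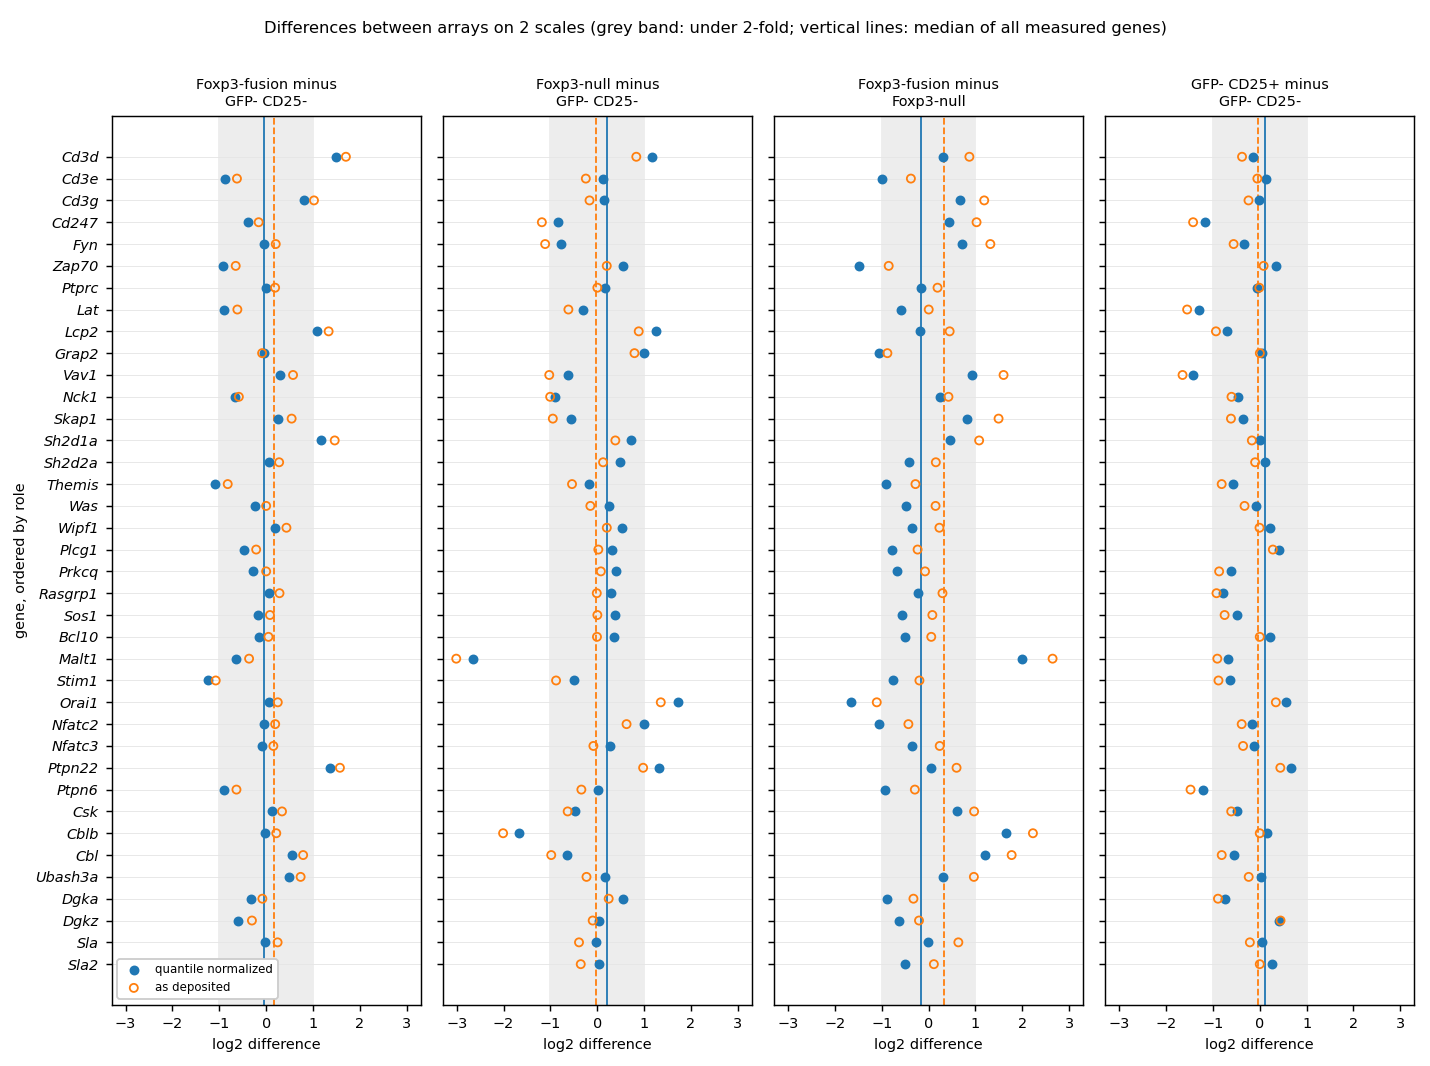
Log2 difference of each of 38 genes (rows, by role) in 4 comparisons of 2 arrays (panels). Filled points are quantile normalized and open points deposited values, the grey band is under 2-fold, and the solid and dashed lines are the medians of all measured genes on each scale. In the panel of Foxp3-fusion over Foxp3-null cells most open points lie to the right of the filled ones, and Malt1, Cblb, Cbl and Orai1 stay outside the band on both scales.

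The receptor chains did not move as a block. Cd3d, which encodes the CD3 delta chain, read 11.02 log2 in Foxp3-fusion and 10.72 in Foxp3-null cells, against 9.40 in GFP- CD25+ and 9.54 in GFP- CD25- cells. Both GFP+ arrays were thus above both GFP- arrays. Over GFP- CD25- cells Cd3d was 2.79-fold higher in Foxp3-fusion cells and 2.25-fold higher in Foxp3-null cells, or 3.25-fold and 1.78-fold with deposited values. Cd3g, the CD3 gamma chain gene, read 10.51 in Foxp3-fusion and 9.85 in Foxp3-null cells, against 9.69 in GFP- CD25+ and 9.70 in GFP- CD25- cells. Only the Foxp3-fusion array stood above the rest, by 1.76-fold over GFP- CD25- cells and 2.03-fold with deposited values. Cd3e, which encodes CD3 epsilon, read 9.17 in Foxp3-fusion and 10.18 in Foxp3-null cells, against 10.18 in GFP- CD25+ and 10.06 in GFP- CD25- cells. It was lowest in Foxp3-fusion cells. Its difference from Foxp3-null cells, -1.0 log2, stood at the 2-fold threshold and was -0.38 with deposited values. These 3 genes each had 1 probe set.

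Cd3d, Cd3g and Cd3e are near neighbours on mouse chromosome 9. Their promoters are shown because genes of 1 locus and 1 protein complex ran differently over the same 4 arrays. The windows are the 250 bases before each start, from RefSeq (GRCm38.p6), which held promoters for 34 of the 39 genes. Letters searched for on both strands were GTAAACA, a forkhead core, and TGTGGT, a Runx core, and matches are in capitals. Neither set of letters is in these 3 windows.
Cd3d, chr9:44981536-44981785, + strand: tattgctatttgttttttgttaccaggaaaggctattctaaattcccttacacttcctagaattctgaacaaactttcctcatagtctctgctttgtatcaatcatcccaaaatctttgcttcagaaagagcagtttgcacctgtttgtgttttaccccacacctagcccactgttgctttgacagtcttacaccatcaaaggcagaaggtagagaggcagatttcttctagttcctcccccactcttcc
Cd3g, chr9:44980432-44980681, - strand: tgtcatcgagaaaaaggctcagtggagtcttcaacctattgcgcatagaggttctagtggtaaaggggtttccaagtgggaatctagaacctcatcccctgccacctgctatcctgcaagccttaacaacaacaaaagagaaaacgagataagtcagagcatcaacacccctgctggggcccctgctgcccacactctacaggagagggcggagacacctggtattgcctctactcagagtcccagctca
Cd3e, chr9:45009612-45009861, - strand: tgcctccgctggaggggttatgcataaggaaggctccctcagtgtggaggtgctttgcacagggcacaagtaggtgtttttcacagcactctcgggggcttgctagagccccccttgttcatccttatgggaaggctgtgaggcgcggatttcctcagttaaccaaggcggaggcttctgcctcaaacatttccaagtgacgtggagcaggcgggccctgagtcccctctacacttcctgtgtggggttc

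Cd247 encodes the zeta chain, which carries most of the tyrosine motifs of the complex. It read 9.66 log2 in Foxp3-fusion and 9.22 in Foxp3-null cells, against 8.89 in GFP- CD25+ and 10.06 in GFP- CD25- cells. It was 2.25-fold lower in GFP- CD25+ than in GFP- CD25- cells and 2.68-fold lower with deposited values. A second, dimmer probe set differed by -0.11 log2 in the same comparison, so the difference was seen on 1 of 2 probe sets above the floor.

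Among the kinases, Zap70, whose product docks on the phosphorylated receptor chains, was lower in Foxp3-fusion than Foxp3-null cells. It read 7.33 log2 in Foxp3-fusion and 8.81 in Foxp3-null cells, against 8.60 in GFP- CD25+ and 8.26 in GFP- CD25- cells. The difference between the GFP+ populations was 2.80-fold lower in Foxp3-fusion cells, or 1.80-fold with deposited values. The probe set used can match several transcripts. A second one was also lower in Foxp3-fusion cells relative to Foxp3-null cells, by 2.89-fold. On that probe set Foxp3-null cells were highest, 3.90-fold above GFP- CD25- cells, whereas the first gave 1.47-fold. Against GFP- CD25- cells the probe sets disagreed for Foxp3-fusion cells, at -0.93 log2 on the first and 0.43 on the second. Fyn, the Src family kinase, read 9.91 in Foxp3-fusion and 9.19 in Foxp3-null cells, against 9.64 in GFP- CD25+ and 9.96 in GFP- CD25- cells. It was lowest in Foxp3-null cells, under 2-fold from Foxp3-fusion cells (1.65-fold) and 2.49-fold with deposited values. Its other probe set differed by -0.39 log2 in that comparison, and by 0.25 with deposited values, so its direction depended on the scale. Ptprc, whose product CD45 activates Src family kinases, read from 13.59 to 13.82 over the 4 arrays and was the flattest of the kinase group above the floor. Its second probe set, however, was 4.04-fold lower in Foxp3-fusion and 7.06-fold lower in Foxp3-null than in GFP- CD25- cells.

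Of the 11 adaptors and actin regulators, Lcp2 and Sh2d1a were higher in Foxp3-fusion than in GFP- CD25- cells. Lcp2 encodes SLP-76, the scaffold that works with LAT. It read 8.29 log2 in Foxp3-fusion and 8.47 in Foxp3-null cells, against 6.52 in GFP- CD25+ and 7.21 in GFP- CD25- cells. Both GFP+ arrays were above both GFP- arrays, and over GFP- CD25- cells the difference was 2.11-fold in Foxp3-fusion and 2.39-fold in Foxp3-null cells, or 2.52-fold and 1.84-fold with deposited values. Myeloid cells also express Lcp2. The summed signal of dendritic cell and macrophage markers was 186 in Foxp3-fusion and 348 in Foxp3-null cells, against 307 in GFP- CD25+ and 283 in GFP- CD25- cells. A second Lcp2 probe set was 1.48-fold and 1.95-fold higher in the same 2 comparisons. It read 5.97 in Foxp3-fusion and 6.37 in Foxp3-null cells, against 6.26 in GFP- CD25+ and 5.40 in GFP- CD25- cells. On this probe set GFP- CD25+ cells lay above Foxp3-fusion cells, so GFP+ arrays were not both above both GFP- arrays. Sh2d1a encodes SAP, an adaptor of SLAM family receptors. It read 6.97 in Foxp3-fusion and 6.51 in Foxp3-null cells, against 5.80 in GFP- CD25+ and 5.79 in GFP- CD25- cells. Both GFP- values lay within 1 log2 unit of the floor. The GFP+ arrays were again above the GFP- arrays, by 2.26-fold in Foxp3-fusion and 1.64-fold in Foxp3-null over GFP- CD25- cells, or 2.76-fold and 1.30-fold with deposited values.

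Themis, a T cell adaptor needed for positive selection in mice, ran the other way. It read 6.98 log2 in Foxp3-fusion and 7.88 in Foxp3-null cells, against 7.49 in GFP- CD25+ and 8.06 in GFP- CD25- cells. It was lowest in Foxp3-fusion cells, 2.12-fold below GFP- CD25- cells and 1.77-fold below with deposited values. Another probe set was 2.92-fold lower in Foxp3-fusion than in GFP- CD25- cells, but also 3.77-fold lower in Foxp3-null cells, where the one used was 1.13-fold lower.

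Lat and Vav1 were the adaptor group's low members in GFP- CD25+ cells. Lat, the membrane scaffold of the signalling complex, read 8.87 log2 in Foxp3-fusion and 9.46 in Foxp3-null cells, against 8.47 in GFP- CD25+ and 9.77 in GFP- CD25- cells. GFP- CD25- cells were highest and GFP- CD25+ cells lowest, 2.47-fold apart, or 2.93-fold with deposited values. Vav1, a signalling protein that acts downstream of the receptor kinases, read 8.30 in Foxp3-fusion and 7.37 in Foxp3-null cells, against 6.58 in GFP- CD25+ and 8.00 in GFP- CD25- cells. It was 2.67-fold lower in GFP- CD25+ than in GFP- CD25- cells. A dimmer Vav1 probe set gave 1.18-fold in the same direction.

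Grap2, which encodes the adaptor GADS, read 4.74 log2 in Foxp3-fusion and 5.93 in Foxp3-null cells, against 4.97 in GFP- CD25+ and 4.93 in GFP- CD25- cells. Only Foxp3-null cells were more than 1 log2 unit above the floor. Grap2 was 2.00-fold higher in Foxp3-null than in GFP- CD25- cells and at least 2.08-fold lower in Foxp3-fusion cells relative to Foxp3-null cells. Deposited values gave 1.73-fold and at least 1.84-fold, and its second probe set was flat, at 4.89 to 5.11. Nck1, an adaptor to the actin machinery, was under the floor in Foxp3-null cells and read 5.12 to 5.78 on the others. Foxp3-null cells lay below GFP- CD25- cells by at least 1.87-fold, or at least 2.01-fold with deposited values. Skap1, Sh2d2a, Was and Wipf1 did not pass 2-fold in any of the 4 comparisons after quantile normalization. Skap1, an adaptor linked to integrin activation, read 8.41 in Foxp3-fusion and 7.58 in Foxp3-null cells, against 7.79 in GFP- CD25+ and 8.15 in GFP- CD25- cells. The difference between the GFP+ populations was 1.78-fold, and 2.82-fold with deposited values. Sh2d2a, which encodes the adaptor TSAd, ranged from 6.18 to 6.66, Was from 6.74 to 7.22, and Wipf1, whose product binds the Was protein, from 9.57 to 10.11.

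In the lipase, Ras and NF-kappaB branch, Malt1 had the widest range of all members. It encodes the paracaspase of the complex that leads from the receptor to NF-kappaB. Malt1 read 8.88 log2 in Foxp3-fusion and 6.88 in Foxp3-null cells, against 8.86 in GFP- CD25+ and 9.53 in GFP- CD25- cells. The Foxp3-null array stood alone below the others, 6.28-fold under GFP- CD25- cells, and Foxp3-fusion cells were 4.01-fold above it. Deposited values gave 8.06-fold and 6.26-fold. The 2 other Malt1 probe sets did not follow. In Foxp3-null over GFP- CD25- cells they differed by 0.32 and -0.15 log2, or by -0.02 and -0.52 with deposited values, so the low level was seen on 1 of 3 probe sets.

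Bcl10, the partner of Malt1, showed the reverse case. On the probe set used it read 6.15 log2 in Foxp3-fusion and 6.66 in Foxp3-null cells, against 6.53 in GFP- CD25+ and 6.32 in GFP- CD25- cells, which is under 2-fold throughout. Another probe set read 7.40 in Foxp3-fusion and 5.82 in Foxp3-null cells, against 3.68 in GFP- CD25+ and 5.52 in GFP- CD25- cells. On it, Foxp3-fusion cells were 3.68-fold above GFP- CD25- cells and 2.99-fold above Foxp3-null cells. One more gave at least 3.68-fold for both. The probe set used and this last one can both match several transcripts.

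The other 4 genes of the branch were under 2-fold apart in each of the 4 comparisons. These set neither Foxp3-fusion nor Foxp3-null against GFP- CD25+ cells, and Rasgrp1 had a range of 1.06 log2 over the arrays. Plcg1, the phospholipase that makes the second messengers, read 10.26 log2 in Foxp3-fusion and 11.05 in Foxp3-null cells, against 11.15 in GFP- CD25+ and 10.73 in GFP- CD25- cells. It was lowest in Foxp3-fusion cells. Prkcq, encoding protein kinase C theta, ranged from 8.54 to 9.54, Rasgrp1, the Ras exchange factor of T cells, from 10.56 to 11.61, and Sos1, another Ras exchange factor, from 6.97 to 7.84. For these 3 genes the lowest value was in GFP- CD25+ cells and the highest in Foxp3-null cells. With deposited values GFP- CD25+ cells stayed lowest.

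In the calcium and NFAT branch, Orai1 was high in Foxp3-null cells. It encodes the pore of the store-operated calcium channel, and read 5.90 log2 in Foxp3-fusion and 7.56 in Foxp3-null cells, against 6.39 in GFP- CD25+ and 5.84 in GFP- CD25- cells. Foxp3-null cells stood above the other 3, 3.28-fold over GFP- CD25- cells, and Foxp3-fusion cells were 3.15-fold below them. Deposited values gave 2.56-fold and 2.15-fold. The second Orai1 probe set was under the floor on every array. Stim1, the calcium sensor that opens the channel, read 6.05 in Foxp3-fusion and 6.80 in Foxp3-null cells, against 6.66 in GFP- CD25+ and 7.30 in GFP- CD25- cells. It was 2.37-fold lower in Foxp3-fusion than in GFP- CD25- cells and 2.11-fold lower with deposited values, on a probe set that can match several transcripts. No array had its other probe set above the floor.

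Nfatc2, a transcription factor that calcium signals send to the nucleus, read 6.39 log2 in Foxp3-fusion and 7.44 in Foxp3-null cells, against 6.27 in GFP- CD25+ and 6.44 in GFP- CD25- cells. As with Orai1, the Foxp3-null array stood above the other 3. The difference was 2.00-fold over GFP- CD25- cells and 2.07-fold between the GFP+ populations, and 1.54-fold and 1.35-fold with deposited values. Nfatc3, a related factor, ranged from 9.87 to 10.27 and was flat on the probe set used. Its second probe set read 5.20 in Foxp3-fusion cells, close to the floor, and was under the floor on the other arrays. There Foxp3-fusion cells were at least 1.25-fold above GFP- CD25- and Foxp3-null cells.

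The forkhead core GTAAACA stood in 6.00% of 50 promoter windows of the members, beside 3.17% of 32851 windows in the RefSeq table, and TGTGGT in 14.0% of both. Grap2, Nfatc2 and Nfatc3 were the members with the forkhead core. The windows of Grap2 and Nfatc2 are printed because both genes were past 2-fold, and lower, in Foxp3-fusion over Foxp3-null cells after quantile normalization, though not with deposited values. Capitals mark the core, as TGTTTAC on the printed strand in Grap2, 179 bases before the start, and as GTAAACA in Nfatc2, 185 bases before 1 of its 2 listed starts. A match in a window is a description and not a binding site, and the motifs were picked after the levels had been seen.
Grap2, chr15:80623233-80623482, + strand: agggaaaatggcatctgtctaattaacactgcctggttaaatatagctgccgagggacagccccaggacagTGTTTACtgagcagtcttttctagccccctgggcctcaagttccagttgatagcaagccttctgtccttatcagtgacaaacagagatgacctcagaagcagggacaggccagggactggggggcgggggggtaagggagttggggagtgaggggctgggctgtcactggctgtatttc
Nfatc2, chr2:168601658-168601907, - strand: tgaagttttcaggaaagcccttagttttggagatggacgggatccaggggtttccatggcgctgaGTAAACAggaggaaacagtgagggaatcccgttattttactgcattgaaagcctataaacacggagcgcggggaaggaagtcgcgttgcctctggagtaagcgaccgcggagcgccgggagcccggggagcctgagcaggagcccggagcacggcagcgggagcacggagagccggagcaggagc

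Among the attenuators, Ptpn22 was higher in both GFP+ populations. It encodes a phosphatase that acts on Src family kinases and ZAP-70. It read 10.56 log2 in Foxp3-fusion and 10.51 in Foxp3-null cells, against 9.87 in GFP- CD25+ and 9.19 in GFP- CD25- cells. GFP+ arrays were above GFP- arrays, with GFP- CD25+ cells between. Over GFP- CD25- cells it was 2.58-fold higher in Foxp3-fusion and 2.49-fold higher in Foxp3-null cells, or 2.98-fold and 1.97-fold with deposited values.

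The ubiquitin ligases Cblb and Cbl were both lowest in Foxp3-null cells on the probe sets used. Cblb, whose product restrains T cell activation, read 10.19 log2 in Foxp3-fusion and 8.54 in Foxp3-null cells, against 10.38 in GFP- CD25+ and 10.22 in GFP- CD25- cells. The Foxp3-null array was alone, 3.20-fold below GFP- CD25- cells, with Foxp3-fusion cells 3.14-fold above it. The other Cblb probe sets gave another picture. The first read 8.53 in Foxp3-fusion and 7.0 in Foxp3-null cells, against 7.93 in GFP- CD25+ and 6.84 in GFP- CD25- cells. There Foxp3-fusion cells were 3.23-fold above GFP- CD25- cells and 2.88-fold above Foxp3-null cells, while Foxp3-null over GFP- CD25- cells was 0.16 log2, or -0.23 with deposited values. The second exceeded GFP- CD25- cells by at least 2.51-fold in Foxp3-fusion cells and by at least 3.55-fold in Foxp3-null cells. The comparison of the GFP+ populations thus passed 2-fold on 2 of 3 probe sets. On the remaining one, Foxp3-fusion over Foxp3-null cells was -0.50 log2, the other direction, or 0.07 with deposited values. The 3 probe sets also gave unlike differences of Foxp3-null from GFP- CD25- cells.

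Cbl read 9.68 log2 in Foxp3-fusion and 8.48 in Foxp3-null cells, against 8.56 in GFP- CD25+ and 9.12 in GFP- CD25- cells. It was 2.29-fold higher in Foxp3-fusion cells relative to Foxp3-null cells and 3.42-fold higher with deposited values. A second probe set of similar brightness gave 3.05-fold. On that one, GFP- CD25+ cells and Foxp3-null cells were 2.84-fold and 2.83-fold below GFP- CD25- cells, against 1.47-fold and 1.56-fold on the one used. Both Cbl probe sets above the floor were thus past 2-fold between the GFP+ populations.

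Sla encodes SLAP, an adaptor that lowers receptor levels on thymocytes. On the probe set used it was the flattest of the 38 members after quantile normalization, at 8.82 to 8.90 log2, while its range with deposited values was 0.64 log2, wider than that of Bcl10 (0.06) or Ptprc (0.20). Another probe set read 10.09 in Foxp3-fusion and 8.51 in Foxp3-null cells, against 7.45 in GFP- CD25+ and 7.75 in GFP- CD25- cells. On it Foxp3-fusion cells were 5.07-fold above GFP- CD25- cells and 3.0-fold above Foxp3-null cells, the largest difference in the first comparison on any probe set of the members. One more was 2.09-fold higher in Foxp3-fusion cells relative to Foxp3-null cells but 1.12-fold higher than in GFP- CD25- cells. The one used can match several transcripts.

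**Figure D3:**
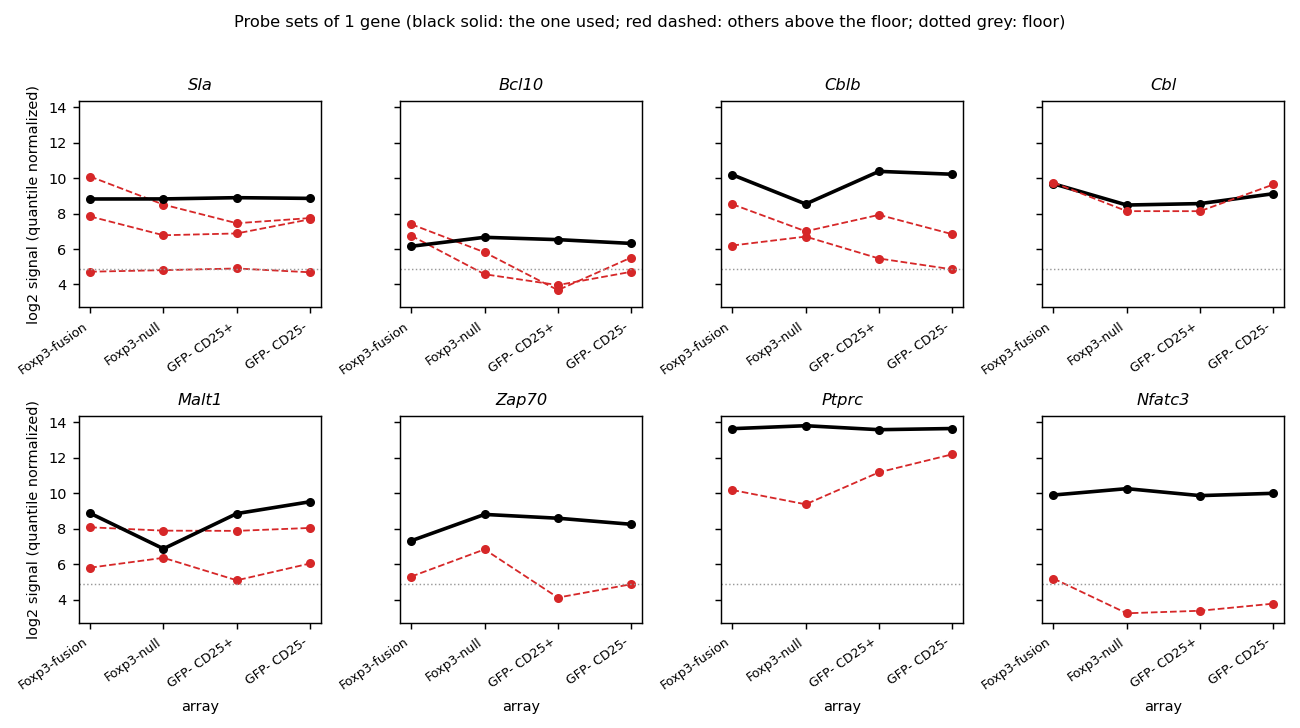
Quantile normalized log2 signal of every probe set above the floor for 8 genes (panels) on 4 arrays (horizontal axis). The black solid line is the probe set used, red dashed lines are others, and the dotted line is the floor of 4.87. The black line spans 0.07 log2 for Sla and 0.51 for Bcl10. Their red lines, except the Sla one near the floor, are highest in Foxp3-fusion cells. For Malt1 and Cblb the dip of the black line in Foxp3-null cells is not on every red one.

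Ptpn6 encodes SHP-1, a phosphatase of the pathway that myeloid and B cells also express. It read 8.18 log2 in Foxp3-fusion and 9.11 in Foxp3-null cells, against 7.88 in GFP- CD25+ and 9.09 in GFP- CD25- cells. Foxp3-fusion and GFP- CD25+ cells were low, and GFP- CD25+ cells were 2.31-fold below GFP- CD25- cells. A second probe set gave 1.82-fold there, and was 3.01-fold lower in Foxp3-fusion than in GFP- CD25- cells, against 1.88-fold on the one used. Dgka, Dgkz, Csk, Ubash3a and Sla2 did not pass 2-fold in any of the 4 comparisons, which set neither Foxp3-fusion nor Foxp3-null against GFP- CD25+ cells. Dgka and Dgkz encode kinases that remove diacylglycerol, and ranged from 10.34 to 11.62 and from 12.56 to 13.58. Csk, the kinase that inhibits Src family kinases, ranged from 5.20 to 5.82, Ubash3a, which encodes STS-2, from 7.39 to 7.87, and Sla2, the relative of Sla, from 6.45 to 7.18.

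GFP- CD25+ cells were the population in which pathway genes most often read lowest. Of 36 members above the floor on all arrays, 15, or 41.7%, were lowest there, beside 19.7% of 6006 genes measured in the same way. With deposited values this was 19 members, or 52.8%, beside 28.2% of 6092 genes. In GFP- CD25+ over GFP- CD25- cells, 27 of 38 members lay below the median of all genes on either scale. The 6 measured CD4 T cell markers had a median of -0.64 log2 in the same comparison. Their summed linear signal was 2580 in GFP- CD25+ cells, beside 6430 in Foxp3-fusion, 4540 in Foxp3-null and 4450 in GFP- CD25- cells. The brightest gene of the Foxp3-fusion sum was Cd2, at 11.85 log2 against 9.36 in GFP- CD25+ cells. Thy1 went the other way, at 6.72 in Foxp3-fusion against 8.30 in GFP- CD25+ cells. The GFP- CD25+ array also had the widest gap between 3' and 5' control probe sets. The part of either in these counts was not tested. By role, the medians in this comparison were -0.55 for the lipase, Ras and NF-kappaB branch, -0.36 for adaptors, -0.15 for the calcium branch, -0.08 for the receptor chains, -0.07 for the kinases and 0.03 for attenuators, beside 0.11 for all genes.

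**Figure D4:**
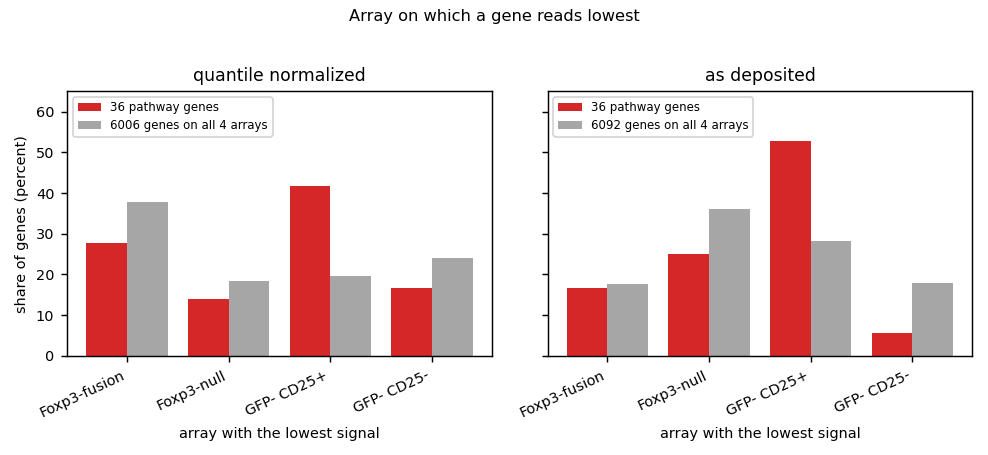
Share of genes in percent (vertical axis) that read lowest on each array (horizontal axis), for 36 pathway genes (red) and for all genes above the floor on all 4 arrays (grey), after quantile normalization (left) and as deposited (right). The red bar of GFP- CD25+ cells is 41.7% and 52.8%, beside grey bars of 19.7% and 28.2%.

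Other genes of the pathway, from a list of 76 of which 67 had a probe set, were counted in the same way. In Foxp3-fusion over GFP- CD25- cells 4 of 60 measured passed 2-fold upwards and 5 downwards (7 and 3 with deposited values), at a median of -0.21 log2. All genes gave 10.5% and 5.78% (15.6% and 3.81%). In Foxp3-null over GFP- CD25- cells 3 of 58 were higher and 10 lower (0 and 13), beside 10.6% and 7.67% of all genes (5.11% and 12.5%). In Foxp3-fusion over Foxp3-null cells 8 of 59 were higher and 5 lower (14 and 1), beside 9.17% and 8.53% (20.9% and 2.79%). In GFP- CD25+ over GFP- CD25- cells 0 of 59 were higher and 7 lower (0 and 15), at a median of -0.28, beside 4.25% and 4.64% (2.74% and 7.70%). One gene of the list, Pdk1, encodes a metabolic kinase in mouse and not the signalling kinase of that short name, and was lower by at least 2-fold in all comparisons with GFP- CD25- cells after quantile normalization. Rhoh, a GTPase gene needed for ZAP-70 function in mice, read 9.38 log2 in Foxp3-fusion cells, against 7.10 in GFP- CD25- cells, 4.87-fold higher. Cd2, an adhesion receptor gene, was 4.16-fold higher and Stim2, a relative of Stim1, 3.03-fold higher in the same comparison. Lax1, an attenuating adaptor gene, was 3.70-fold lower and Atp2a3, a calcium pump gene, 2.76-fold lower. Between the GFP+ populations, Nfatc1 was 4.63-fold and the costimulatory receptor gene Cd28 3.71-fold higher in Foxp3-fusion cells, and Pik3cd, a phosphoinositide kinase gene, was 3.40-fold lower.

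Transcripts known to follow receptor signalling, 21 genes such as the Nr4a and Egr families, were counted in the same way. In Foxp3-fusion over GFP- CD25- cells 6 of 20 measured were higher and 3 lower (7 and 2 with deposited values). All genes gave 10.5% and 5.78% (15.6% and 3.81%). In Foxp3-null over GFP- CD25- cells it was 4 and 2 of 19 (3 and 4), beside 10.6% and 7.67% (5.11% and 12.5%), so the balance turned with the scale. In Foxp3-fusion over Foxp3-null cells it was 5 and 3 of 20 (7 and 0), beside 9.17% and 8.53% (20.9% and 2.79%). In GFP- CD25+ over GFP- CD25- cells it was 4 and 3 of 20 (4 and 4), beside 4.25% and 4.64% (2.74% and 7.7%).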

How the data were processed

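The authors deposited processed signals on a log scale, read here as log2 from their range. Per the labels' protocols, column-purified RNA went through 2 rounds of amplification to biotinylated cRNA. The software and normalization behind the deposited values are not given in the sources used here. Array means ran from 4.16 to 4.22 while 90th percentiles ran from 7.54 to 8.17, so the log2 values of all 45101 probe sets were quantile normalized for the results, and the deposited scale was kept beside them.

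The 64 control probe sets were left out. The platform annotation gave 1 gene for 34945 probe sets, several for 932 and none for 9160. Of the 34945, 34741 matched a RefSeq gene identifier (GRCm38.p6), which changed 0 symbols. Each of 18193 genes was represented by its probe set of highest mean, the same for all 39 members by deposited or normalized values. The floor, 4.87 log2 (4.83 deposited), came from 65 probe sets of genes of other tissues: their 90th percentile was taken on each array and the highest kept. One of these genes, Mbp, is expressed by T cells. Signals under the floor were raised to it, which makes a difference from them a lower bound, and a pair of such signals gives none. A gene was counted at 2-fold. With 1 array per group no test was made, and precision is limited by that number. Probe sets of a gene were compared by their differences between arrays, except that the median over probe sets takes each array's median level and can set different probe sets against each other.

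The members and lists were chosen with earlier results of these data known. Every listed member is given, and up to 8 other pathway genes by size of difference in the Foxp3-fusion comparisons. Pdk1 was named in addition, because of its symbol and not by size of difference. Alternatives were the deposited scale, centring, no floor, a higher floor, the median over probe sets, counting at 3-fold or 1.5-fold, and omitting those probe sets whose name ends in _x_at or _s_at, which can match more than 1 transcript. A floor without Mbp, differences relative to the median of all genes on both scales, and the median of the differences within each probe set were added after the data were seen. Normalization and differences were tested on simulated arrays with differences added to bright probe sets. That test did not cover the choice of probe set, probe sets that disagree or arrays of unlike distribution. Python 3.11.15, numpy 2.4.6 and pandas 2.3.3 were used.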

Additional observations from a re-analysis of the deposited data

How the results depend on the processing

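Counts are of members higher or lower by the threshold, in 4 comparisons. Of 26 member differences past 2-fold, 7 stayed past it under the 10 alternatives other than thresholds, and 19 did not under at least 1; 4 of the 26 had no value under 1 of these. The 7 were Cd3d, Sh2d1a and Ptpn22 in Foxp3-fusion over GFP- CD25- cells, Cblb and Cbl in Foxp3-fusion over Foxp3-null cells, and Lat and Ptpn6 in GFP- CD25+ over GFP- CD25- cells. Cd3d, Sh2d1a, Ptpn22 and Lat have 1 probe set each, so the alternatives that combine or omit probe sets could not change them. Of the 26, only 1 changed sign, Cblb in Foxp3-null over GFP- CD25- cells, at -1.68 log2. It was 0.16 with the median over probe sets and with the median of differences within probe sets. With the median of differences within probe sets Malt1 was -0.15 in Foxp3-null over GFP- CD25- and 0.19 in Foxp3-fusion over Foxp3-null cells, Cd247 was -0.64 in GFP- CD25+ over GFP- CD25- cells, and 4 members were lower in Foxp3-fusion over GFP- CD25- cells. The cause of the changes below was not tested, except that a threshold changes a count by construction. In Foxp3-fusion over GFP- CD25- cells the 2 lower members became 1 with deposited values, with or without subtracting the median of all genes, 1 without probe sets of several transcripts, 0 at 3-fold and 9 at 1.5-fold, and the 4 higher members became 0 at 3-fold. In Foxp3-null over GFP- CD25- cells the 6 higher and 2 lower became 1 and 6 with deposited values, 3 and 4 relative to the median of all genes, and 1 and 5 relative to it with deposited values; 1 was higher at 3-fold and 7 lower at 1.5-fold. In Foxp3-fusion over Foxp3-null cells the 3 higher and 5 lower became 9 and 1 with deposited values, 5 and 3 with deposited values relative to the median of all genes, and 8 and 13 at 1.5-fold. The 5 lower became 3 after centring, 3 with the median over probe sets, 2 relative to the median of all genes and 1 at 3-fold, and the 3 higher became 5 without probe sets of several transcripts. In GFP- CD25+ over GFP- CD25- cells the 0 higher and 4 lower became 1 and 2 with the median over probe sets and 1 and 10 at 1.5-fold, with 0 lower at 3-fold. With deposited values the median member difference changed sign in 3 comparisons, to 0.17 in Foxp3-fusion over GFP- CD25- cells, -0.12 in Foxp3-null over GFP- CD25- cells and 0.21 in Foxp3-fusion over Foxp3-null cells. It did not in GFP- CD25+ over GFP- CD25- cells, at -0.37. With the median over probe sets it was 0.02 in the first of these. No paired analysis was possible because each population had 1 array. Signals within 1 log2 unit of the floor limit what can be read for Grap2, Nck1 and Csk. The same holds for Sh2d1a on both GFP- arrays and for Orai1 in GFP- CD25- cells.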

Other observations

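Of the 39 probe sets used, 8 had deposited values equal to the last digit on at least 2 arrays (Ptprc, Was, Prkcq, Sos1, Bcl10, Stim1, Cblb and Sla2), or 20.5%. Among 11236 probe sets above the floor on all arrays, a filter not applied to the 39, the share was 13.8%. A deposited difference of exactly 0, as for Prkcq and Was between Foxp3-fusion and GFP- CD25- cells, is therefore no measure of how precisely 2 populations match. How the equal values came about was not tested.

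Some members under 2-fold on the probe set chosen by brightness were past 2-fold on another. In Foxp3-fusion over GFP- CD25- cells, members under 2-fold on the probe set used had 22 other measured probe sets. Of these, 5 were at least 2-fold higher and 2 lower, from Bcl10, Cblb, Ptpn6, Ptprc and Sla. In Foxp3-fusion over Foxp3-null cells it was 4 higher and 1 lower of 17, from Bcl10, Sla and Ptpn6. In Foxp3-null over GFP- CD25- cells it was 1 higher and 4 lower of 16, from Cbl, Ptprc, Skap1, Themis and Zap70. In GFP- CD25+ over GFP- CD25- cells it was 1 higher and 4 lower of 21, from Cbl, Cblb, Fyn, Ptprc and Themis. These genes were picked out after their values had been seen. Other probe sets of members past 2-fold on the one used are not in these counts. The share over all probe sets not used is not given here, so the counts have no background beside them.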
